A study of Mus musculus with 56 samples.

Results

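Nr1d1, Nr1d2, Bhlhe40, Bhlhe41 and Ciart encode repressors of the mammalian circadian clock, and their transcripts were followed in the anterior hypothalamus of mice fed only by day or only by night. The genes were chosen by name, 5 of the 17564 genes measured, and all 5 passed the filter on low values. RNA came from 56 female C57BL/6J mice aged 9 weeks, kept in a cycle of 12 h of light and 12 h of darkness and given no other treatment than a feeding schedule of 7 days. In daytime-restricted feeding (DRF, 28 mice) chow was offered from zeitgeber time 0 (ZT0, lights on) to ZT12 (lights off), and in nighttime-restricted feeding (NRF, 28 mice) from ZT12 to ZT0. Each of 14 groups held 4 mice of 1 regimen at ZT0, ZT4, ZT8, ZT12, ZT16, ZT20 or ZT24, and the ZT24 mice were other mice than the ZT0 mice. There was no group with free access to food, so neither regimen has an unrestricted reference.

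REV-ERBα (Nr1d1) and REV-ERBβ (Nr1d2) are haem-binding nuclear receptors that recruit corepressors, among them HDAC3, to REV-ERB and ROR response elements (RREs), where they oppose the ROR activators at genes such as Arntl and Nfil3. DEC1 (Bhlhe40) and DEC2 (Bhlhe41) are basic helix-loop-helix proteins that bind E-boxes and oppose activation by CLOCK and BMAL1, the product of Arntl. CHRONO (Ciart) binds BMAL1 and lowers its activity. All of these genes are themselves targets of CLOCK and BMAL1, so their transcripts usually rise in the light phase and at dusk, opposite to Arntl, and the suprachiasmatic nucleus in the anterior hypothalamus holds the master clock that follows light.

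The upstream DNA is shown because E-boxes are the elements through which CLOCK and BMAL1 act. A link between these motifs and the peak times of the members was not tested. Below are the 250 bases before the start that the RefSeq promoter table gives for each of the 4 members with an entry (GRCm38.p6, all on the minus strand), from chr11:98775378-98775627 for Nr1d1, chr14:18239107-18239356 for Nr1d2, chr6:145865421-145865670 for Bhlhe41 and chr3:95882229-95882478 for Ciart. For Ciart the start in that table, base 95882228, lies 29 bases inside the RefSeq gene, so its window takes in the first bases of the gene. Capitals mark matches to the E-box CACGTG, to its variant CACGTT or the reverse complement AACGTG, and to AGGTCA, the core bound by REV-ERB and ROR receptors.
Nr1d1: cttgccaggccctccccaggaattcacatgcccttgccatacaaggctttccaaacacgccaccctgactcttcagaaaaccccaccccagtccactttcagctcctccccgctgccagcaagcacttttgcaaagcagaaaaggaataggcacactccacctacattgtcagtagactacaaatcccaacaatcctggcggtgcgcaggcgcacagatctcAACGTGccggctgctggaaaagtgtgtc
Nr1d2: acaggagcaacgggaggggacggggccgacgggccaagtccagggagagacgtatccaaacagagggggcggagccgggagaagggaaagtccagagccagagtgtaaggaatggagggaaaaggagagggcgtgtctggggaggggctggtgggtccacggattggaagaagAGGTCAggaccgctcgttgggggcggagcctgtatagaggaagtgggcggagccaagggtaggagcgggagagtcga
Bhlhe41: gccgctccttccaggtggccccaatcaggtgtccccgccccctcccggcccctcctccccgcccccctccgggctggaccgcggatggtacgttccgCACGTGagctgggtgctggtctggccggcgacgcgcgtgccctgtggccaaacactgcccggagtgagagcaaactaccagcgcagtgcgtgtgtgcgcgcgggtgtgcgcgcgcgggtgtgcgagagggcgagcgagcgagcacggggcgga
Ciart: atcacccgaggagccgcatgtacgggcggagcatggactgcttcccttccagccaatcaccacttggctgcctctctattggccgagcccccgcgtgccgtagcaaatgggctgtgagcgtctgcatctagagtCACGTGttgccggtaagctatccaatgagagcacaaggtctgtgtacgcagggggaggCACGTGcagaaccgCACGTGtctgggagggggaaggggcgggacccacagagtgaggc

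The Ciart sequence held 3 copies of CACGTG, beginning 116, 58 and 44 bases before the start in the promoter table, and the Bhlhe41 sequence held 1, beginning 153 bases before it. Among 32851 promoter windows of this length, 6.02% held CACGTG at least 1 time and 0.0609% held 3 or more copies. The Nr1d1 sequence held no CACGTG and 1 AACGTG, 28 bases before the start, a variant present on either strand in 3.85% of windows. The Nr1d2 sequence held neither, and 1 AGGTCA beginning 77 bases before the start, which 14% of windows hold. TTATGTAA and TTATGCAA, forms of the D-box bound by DBP, TEF, HLF and NFIL3, occurred on neither strand in the 4 sequences, against 0.819% and 0.694% of windows. No motif overlapped another, and a match is a description of the letters in this window only.

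On GRCm38, Nr1d1 lies on chromosome 11 from 98767932 to 98775333, Nr1d2 on chromosome 14 from 18204054 to 18239127, Bhlhe40 on chromosome 6 from 108660629 to 108666925, Bhlhe41 on chromosome 6 from 145858243 to 145865558 and Ciart on chromosome 3 from 95878503 to 95882251. These gene positions are those of GENCODE, whereas the windows above follow the RefSeq promoter table. The GENCODE starts of Nr1d2 (18239127), Bhlhe41 (145865558) and Ciart (95882251) lie inside those windows. By GENCODE, part of each of these windows is therefore gene sequence. Values are for the whole gene, over the merged exons of all its isoforms. The 3' end of Nr1d1 shares 1075 bases with Thra, a thyroid hormone receptor gene on the opposite strand, and the assignment of reads there is uncertain because a stranded protocol is not given in the sources used here. The reads of Nr1d1 came out whole in only 4 of 56 mice and otherwise as fractions, and those of Thra likewise. Thra itself showed no rhythm in either regimen (adjusted p = 1 in both, MetaCycle-type test), and its fitted 24-h amplitude on the log2(CPM + 1) scale was 0.05 (NRF) and 0.04 (DRF).

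Depth was similar across mice, with a normalized library size of 29591266 to 34493344 reads. The reads behind a value were 2026 to 4505 for Nr1d1, 2587 to 5431 for Nr1d2, 1955 to 2870 for Bhlhe40, 1463 to 2320 for Bhlhe41 and 253 to 696 for Ciart. Replicates 3 and 4 of DRF at ZT16 stood apart from the other 54 libraries. In these libraries the deviation of a transcript from its median over mice correlated with its GC content at r = 0.69 and 0.793 across 12612 genes, which are not independent replicates, against -0.467 to 0.453 elsewhere. Most results that rest on them are therefore given with and without them. A GC trend was not confined to these libraries. In NRF, r was 0.11 to 0.353 in the 4 mice at ZT8, -0.39 to -0.102 at ZT20 and -0.467 to -0.23 at ZT24. In DRF at ZT8 it was 0.387, -0.334, -0.337 and 0.116. The part of this trend in the rhythms of the members was not tested further. All 8 listed markers of the suprachiasmatic nucleus were detected (Vip, Avp, Six6, Lhx1, Nms, Rgs16, Prok2 and Vipr2), with a summed level of 130.4 to 393 normalized counts per 1000000 reads (CPM) in DRF and 167 to 395 CPM in NRF. All 4 thalamus markers were detected as well, at 277 to 449 CPM in DRF and 285 to 555 CPM in NRF. In bulk tissue, fewer cells of a type and less RNA per cell cannot be told apart.

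Per kilobase of exon, Nr1d1 had the highest mean level in NRF at 31.3 ± 8.01 CPM per kb (SD, n = 28), followed by Nr1d2 at 25.1 ± 3.02, Bhlhe40 at 16.2 ± 1.47, Bhlhe41 at 9.04 ± 1.02 and Ciart at 5.86 ± 1.83. The DRF order was the same, with 30.9 ± 4.86, 24.3 ± 3.4, 15.9 ± 0.859, 8.96 ± 0.763 and 5.76 ± 0.949 CPM per kb. Nr1d1 and Nr1d2 overlapped in range over mice, and so did Bhlhe41 and Ciart, whereas every NRF mouse had more Nr1d2 (20.5 to 32.6 CPM per kb) than Bhlhe40 (13.3 to 19.7). The fitted mean level over the day differed between regimens for 0 of 5 members, where limma called 7.38% of all 16097 transcripts fitted. None of the 5 had an unadjusted p-value under 0.05. The DRF minus NRF differences in mean log2(CPM + 1) lay between -0.06 for Nr1d2 and -0.02 for Nr1d1. Without the DRF ZT16 libraries that stood apart, these differences lay between -0.04 for Nr1d1 and 0.005 for Nr1d2, and again 0 of 5 were called.

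**Figure D1:**
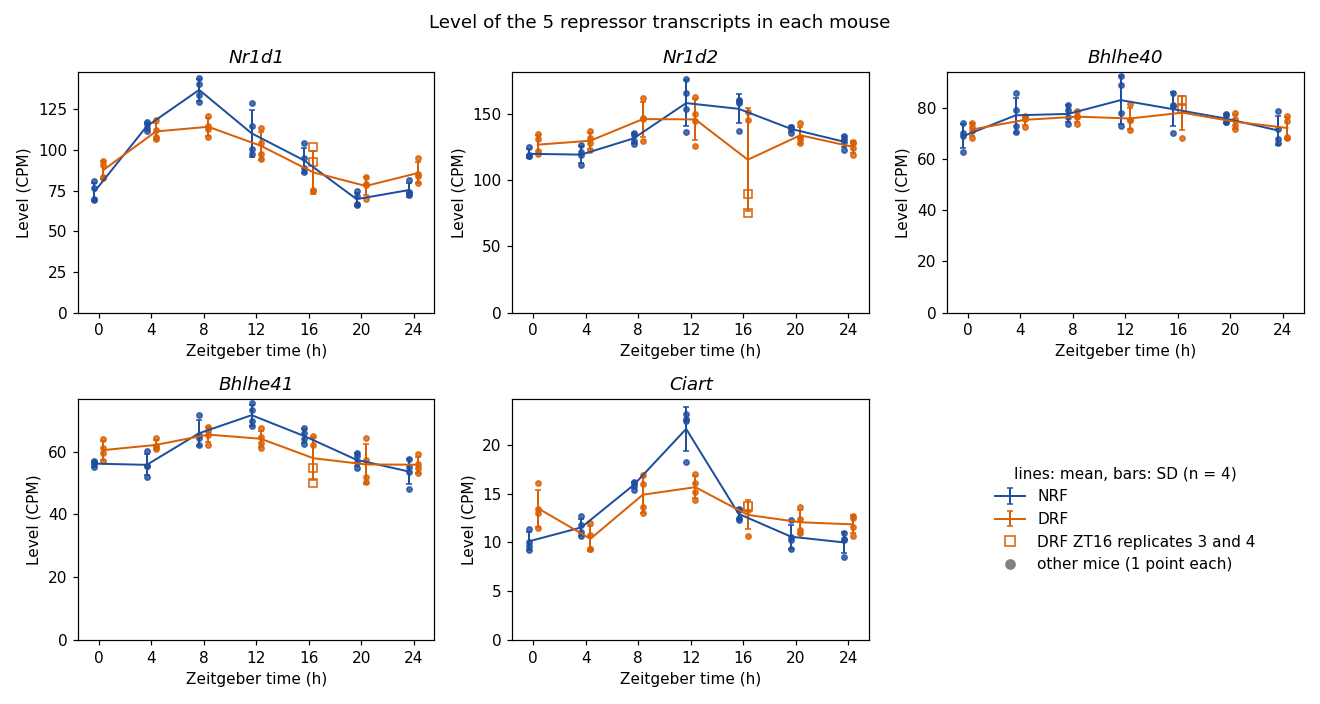
Level of each transcript in CPM against zeitgeber time in hours, 1 point per mouse, with group means and SD (n = 4) for NRF (blue) and DRF (orange). Open squares are DRF ZT16 replicates 3 and 4, which lie below the other mice for Nr1d2 at 89.7 and 75.0 CPM. Ciart in NRF rises to 21.7 CPM at ZT12, against 15.7 CPM in DRF.

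Rhythm was called in NRF for 4 of 5 members, against 27.8% of all 16245 transcripts tested, and in DRF for 1 of 5, Nr1d1, against 0.813% (JTK_CYCLE and the Lomb-Scargle periodogram combined as in MetaCycle, Benjamini-Hochberg adjusted p under 0.05). Without the libraries that stood apart the DRF count was again 1 of 5, against 0.714%. A call in 1 regimen only is not a test of a difference. Compared directly, the 24-h cosine and sine terms of log2(CPM + 1) differed between regimens for 4 of 5 members in limma (Nr1d1, Nr1d2, Bhlhe41 and Ciart), against 11.1% of all transcripts. Without the libraries that stood apart this was 3 of 5, the call of Nr1d2 being lost, against 10.5%. Every member had a lower 24-h amplitude in DRF than in NRF, a direction shared by 61.9% of all transcripts. The amplitude difference itself passed the test for 2 members, Nr1d1 and Ciart, where 0.944% of transcripts were called lower in DRF, and for Ciart alone without those libraries, against 0.603%.

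Nr1d1, the REV-ERBα transcript, rose and fell daily in both regimens but less so in DRF. In NRF its level was 70.0, 69.1, 76.8 and 81.0 CPM in the 4 mice at ZT0, 129, 141, 134 and 144 CPM at ZT8, and 74.6, 66.6, 71.5 and 66.4 CPM at ZT20. In DRF it was 93.4, 90.9, 82.8 and 83.7 CPM at ZT0, 113, 108, 115 and 121 CPM at ZT8, and 83.6, 70.2, 78.6 and 79.2 CPM at ZT20. All 4 DRF mice lay above all 4 NRF mice at ZT0 and below them at ZT8, while the regimens overlapped at ZT20. The highest group mean was 1.96 times the lowest in NRF and 1.47 times in DRF, both between ZT8 and ZT20. The rhythm was called in NRF (adjusted p = 9.5e-07, MetaCycle-type test) and in DRF (1.93e-04), the latter not without replicate 3 (0.0569).

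The cosine fitted to log2(CPM + 1) of Nr1d1 had an amplitude of 0.48 (SE 0.03) in NRF and 0.29 (SE 0.03) in DRF, the 51st and 119th highest of 16097 transcripts. The difference of -0.19 (95% interval -0.28 to -0.09) had an adjusted p of 0.0309 in limma, which became 0.0818 without the DRF ZT16 libraries that stood apart (difference -0.16). It also missed the threshold without each replicate number in turn, with a difference of -0.18 to -0.20. In all, 12 of 18 alternative settings did not call the amplitude difference of Nr1d1. The rhythm difference as a whole was called with all mice (adjusted p = 0.00228) and without those libraries (5.67e-04), but not without replicate 1 (0.0574). The cosine peaked at ZT8.72 in NRF and ZT7.54 in DRF, a difference of -1.17 h (95% interval -2.15 to -0.202, adjusted p = 0.0299 in limma). It was -1.61 h without those libraries, but 2 of the 4 fits leaving out 1 replicate number did not call it, at -0.713 h without replicate 1 (adjusted p = 0.283) and -0.683 h without replicate 2 (adjusted p = 0.333). Peak times were compared only in the 364 transcripts with a 24-h cosine in both regimens, of which 47.3% were called earlier in DRF (35% of 257 without those libraries), so an earlier peak was common among them.

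Point by point, Nr1d1 passed the limma threshold at no time point with all mice. The nearest were ZT0, where DRF was higher by 0.24 (SE 0.08, adjusted p = 0.0714) on the log2 scale, and ZT8, where it was lower by 0.26 (log2 difference -0.26, SE 0.08, adjusted p = 0.156). Without the libraries that stood apart, the spread was smaller and the ZT0 difference passed (adjusted p = 0.0273). At these points 14.4% and 9.7% of all transcripts had groups that did not overlap.

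Nr1d2, the REV-ERBβ transcript, peaked hours later than Nr1d1 in NRF, and its DRF pattern depended on the libraries that stood apart. In NRF it was 119, 111, 126 and 121 CPM in the 4 mice at ZT4, 154, 136, 176 and 166 CPM at ZT12, and 137, 160, 158 and 159 CPM at ZT16. Every NRF mouse at ZT12 and ZT16 lay above every NRF mouse at ZT4. In DRF it was 150, 163, 145 and 126 CPM at ZT12, and 145, 152, 89.7 and 75.0 CPM at ZT16. The ZT16 mice fell into an upper and a lower pair, the lower being replicates 3 and 4, and both lay below all other 54 mice.

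The rhythm of Nr1d2 was called in NRF (adjusted p = 3.79e-06, MetaCycle-type test) and not in DRF (adjusted p = 1, with or without those libraries). On the log2 scale its cosine had an amplitude of 0.20 (SE 0.04) in NRF and 0.11 (SE 0.05) in DRF. The difference was -0.09 with a 95% interval from -0.21 to 0.04. Without those libraries the amplitudes were 0.20 (SE 0.02) and 0.12 (SE 0.02). Their difference was then -0.08 (95% interval -0.15 to -0.01), which was not called (adjusted p = 0.313 in limma). At ZT16 its log2 level was lower in DRF by 0.47 (difference -0.47, SE 0.11, adjusted p = 0.00475 in limma), where 13.2% of transcripts were called lower. Without replicates 3 and 4 the difference was -0.05 (adjusted p = 0.872). It was -0.28 (adjusted p = 0.00678) after each library was freed of its dependence on length, GC content and level of the transcripts. The exons of Nr1d2 have the lowest GC content of the 5 members, 44.0%, and those of Nr1d1 the highest, 56.6%. In the same libraries Nr1d1 was high instead, at 92.9 and 102 CPM against 75.0 and 75.2 CPM in the other DRF ZT16 mice, and the part of the GC trend in this contrast was not tested further.

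The fitted DRF peak of Nr1d2 was ZT7.82 with all mice and ZT12.5 without those libraries, against ZT14.6 in NRF. The limma test of the rhythm difference gave an adjusted p of 0.0232 with all mice and 0.0895 without them. A 24-h cosine in DRF was likewise absent from the calls with all mice (adjusted p = 0.228 in limma) and present without them (0.00396), where 2.34% of transcripts were called. The peak difference was then -2.14 h (95% interval -4.13 to -0.147, adjusted p = 0.0649).

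**Figure D2:**
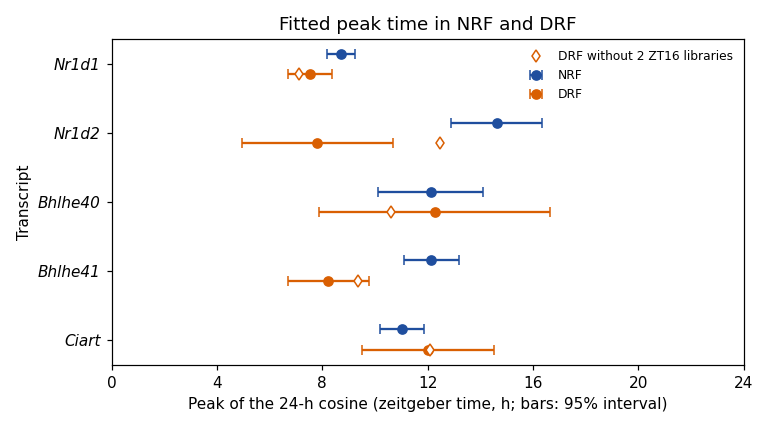
Peak of the 24-h cosine in hours of zeitgeber time for each transcript, with 95% intervals, in NRF (blue) and DRF (orange); open diamonds give the DRF peak without the ZT16 libraries that stood apart. In NRF the order runs from Nr1d1 at ZT8.72 to Nr1d2 at ZT14.6. The DRF peak of Nr1d2 moves from ZT7.82 to ZT12.5 when those libraries are left out. With all mice, the DRF cosine was not called in limma for Nr1d2, Bhlhe40 or Ciart.

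The NRF peaks were ordered Nr1d1 at ZT8.72 (95% interval 8.2 to 9.23), Ciart at ZT11.0 (10.2 to 11.9), Bhlhe40 at ZT12.1 (10.1 to 14.1), Bhlhe41 at ZT12.1 (11.1 to 13.2) and Nr1d2 at ZT14.6 (12.9 to 16.3). The intervals of Ciart, Bhlhe40 and Bhlhe41 overlapped, as did those of both DEC genes and Nr1d2, whereas the interval of Nr1d1 was clear of the other 4. The spread behind these intervals was estimated over both regimens together. Without the libraries that stood apart, the SE of the Nr1d2 peak in NRF fell from 0.86 h to 0.471 h. The overlap of Nr1d2 with Bhlhe41 therefore holds only with all mice. In DRF the intervals were wider. They were 6.72 to 8.36 for Nr1d1, 4.94 to 10.7 for Nr1d2, 6.68 to 9.78 for Bhlhe41, 7.87 to 16.7 for Bhlhe40 and 9.52 to 14.5 for Ciart. With all mice, limma called no DRF 24-h cosine for Nr1d2, Bhlhe40 or Ciart (adjusted p = 0.228, 0.377 and 0.0722). Their DRF intervals therefore locate no established peak. That of Nr1d2 also leaves out its fitted peak without the libraries that stood apart, ZT12.5.

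The ratio of the 2 REV-ERB transcripts changed over an NRF day. Where it crosses 1 depends on the exon lengths used and on how reads in the stretch shared with Thra were assigned. Per kilobase, the ratio of Nr1d1 to Nr1d2 in single NRF mice was 1.7 to 1.96 at ZT8 and 0.835 to 0.969 at ZT20. In DRF it was 1.25 to 1.53 at ZT8 and 0.862 to 1.12 at ZT20. All 4 NRF mice at ZT8 had a higher ratio than all 4 DRF mice, and at ZT20 the regimens overlapped. At ZT16 the DRF libraries that stood apart gave 1.82 and 2.39, and the other DRF mice 0.87 and 0.913, against 0.955 to 1.22 in NRF. These ratios are a description and were not tested.

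**Figure D3:**
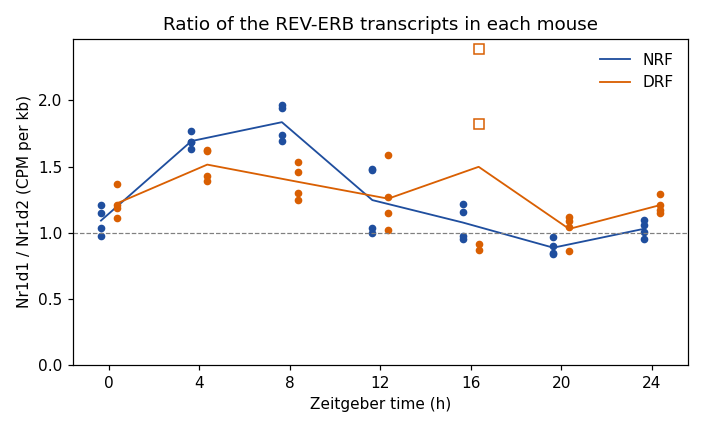
Ratio of Nr1d1 to Nr1d2 in each mouse, both in CPM per kb of exon, against zeitgeber time in hours; lines join the means of 4 mice for NRF (blue) and DRF (orange), open squares are the DRF ZT16 libraries that stood apart, and the dashed line marks a ratio of 1. The NRF mean goes from 1.84 at ZT8 to 0.886 at ZT20, and the DRF mean from 1.38 to 1.03.

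Bhlhe40, the DEC1 transcript, varied little. In NRF it was 68.8, 62.8, 73.9 and 70.2 CPM in the 4 mice at ZT0 and 92.5, 77.8, 88.9 and 72.8 CPM at ZT12. In DRF it was 74.1, 71.1, 72.6 and 68.4 CPM at ZT0 and 75.3, 81.5, 71.4 and 75.1 CPM at ZT12. The ZT0 and ZT12 mice overlapped within each regimen, and the regimens overlapped at every time point. The MetaCycle-type rhythm test was not passed in NRF (adjusted p = 0.0992) or DRF (adjusted p = 1). The NRF result lay near the threshold, since the same test on log2(CPM + 1) gave 0.0488 and the limma 24-h cosine, which called 27.7% of transcripts in NRF, gave 0.00283, with an amplitude of 0.10 (SE 0.02). The rhythm difference between regimens was not called (adjusted p = 0.423 in limma), and the amplitude difference was -0.06 with a 95% interval from -0.12 to 0.01. This does not show that the regimens act alike on it.

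Bhlhe41, the DEC2 transcript, had a clearer rhythm in NRF than Bhlhe40. In NRF it was 52.0, 60.2, 55.6 and 55.3 CPM in the 4 mice at ZT4, 68.0, 73.3, 75.4 and 69.8 CPM at ZT12, and 53.5, 55.1, 57.7 and 48.2 CPM at ZT24. In DRF it was 64.2, 61.9, 61.5 and 60.9 CPM at ZT4, 62.8, 64.8, 61.3 and 67.4 CPM at ZT12, and 54.7, 53.2, 59.2 and 56.2 CPM at ZT24. All DRF mice lay above all NRF mice at ZT4 and below them at ZT12, while at ZT24 they overlapped. The log2 differences were 0.15 at ZT4 (SE 0.06, adjusted p = 0.166 in limma) and -0.16 at ZT12 (SE 0.06, adjusted p = 0.182), neither past the threshold. Groups did not overlap for 14.1% of transcripts at ZT4 and 6.32% at ZT12. The limma call at ZT16 (-0.17, adjusted p = 0.048) was lost without the libraries that stood apart (-0.03, adjusted p = 0.902).

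The Bhlhe41 rhythm was called in NRF (adjusted p = 1.09e-05, MetaCycle-type test) and not in DRF (0.434, and 0.153 without those libraries), although the limma cosine was called in DRF (adjusted p = 0.00718), where 3.93% of transcripts were. The rhythm difference was called with all mice (adjusted p = 0.00323) and without those libraries (0.0143), but not without replicate 3 (0.0788). The cosine peaked at ZT12.1 in NRF and at ZT8.23 in DRF, a difference of -3.91 h (95% interval -5.78 to -2.04, adjusted p = 2.92e-04 in limma), and of -2.79 h (-4.83 to -0.741, adjusted p = 0.0181) without those libraries. The amplitude was 0.19 (SE 0.02) and 0.12 (SE 0.02), and the difference of -0.07 had an adjusted p of 0.416. The ratio of Bhlhe40 to Bhlhe41 per kilobase had group means from 1.66 to 1.98 in NRF and from 1.67 to 1.96 in DRF, so it varied less over the day than the REV-ERB ratio.

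Ciart, the CHRONO transcript and the least abundant of the 5, had a sharp NRF peak at dusk that was lower in DRF. In NRF it was 9.28, 9.66, 11.4 and 10.1 CPM in the 4 mice at ZT0, 23.2, 22.7, 22.5 and 18.3 CPM at ZT12, and 10.3, 11.02, 8.46 and 10.2 CPM at ZT24. In DRF it was 16.1, 13.4, 13.04 and 11.5 CPM at ZT0, 15.2, 14.4, 17.0 and 16.1 CPM at ZT12, and 10.7, 12.7, 11.6 and 12.5 CPM at ZT24. At ZT12 all DRF mice lay below all NRF mice and at ZT0 above them, while at ZT24 the regimens overlapped.

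At ZT12 the Ciart difference was -0.44 on the log2 scale (SE 0.09, adjusted p = 0.0148 in limma), where 0.497% of all transcripts were called lower in DRF. At ZT0 it was 0.38 (SE 0.09, adjusted p = 0.0105), where 2.29% were called higher. At ZT24, the same clock time in other mice, it was 0.23 (SE 0.09, adjusted p = 0.455). The ZT0 difference was 0.26 (adjusted p = 0.339) without replicate number 1, which includes the highest DRF mouse, and 0.36 (adjusted p = 0.0539) without replicate number 2. The ZT12 difference was -0.39 to -0.53 without 1 replicate number, with an adjusted p over 0.05 in 3 of the 4 fits (0.0545 to 0.136).

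**Figure D4:**
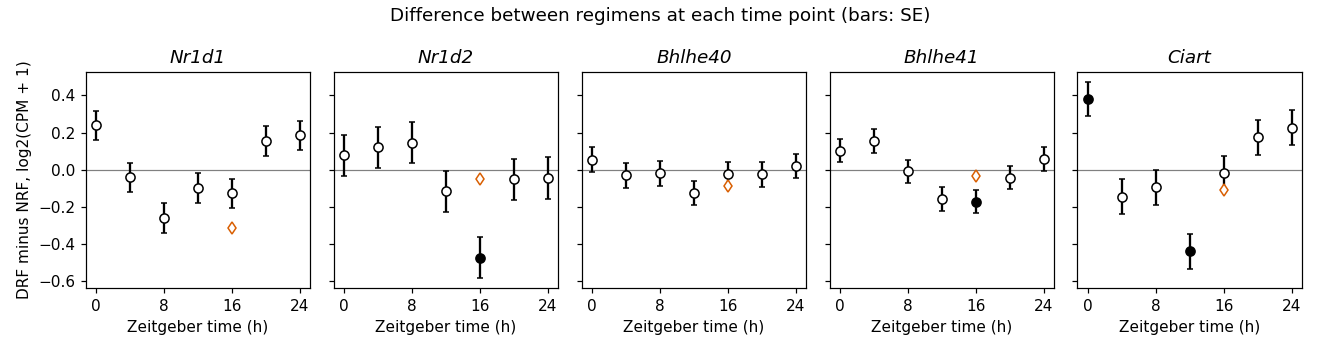
DRF minus NRF difference in log2(CPM + 1) at each time point for the 5 transcripts, with standard errors; filled points passed the limma threshold and open diamonds give ZT16 without the libraries that stood apart. The filled points are Ciart at ZT0 (0.38) and ZT12 (-0.44), Nr1d2 at ZT16 (-0.47) and Bhlhe41 at ZT16 (-0.17), and those at ZT16 move to -0.05 and -0.03 without these libraries.

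Over the day, the Ciart rhythm was called in NRF (adjusted p = 1.15e-06, MetaCycle-type test) and not in DRF (adjusted p = 1), and the difference in rhythm was called in limma (0.0032). The cosine amplitude was 0.46 (SE 0.05) in NRF and 0.16 (SE 0.04) in DRF, a difference of -0.30 (95% interval -0.43 to -0.17, adjusted p = 0.00742, and 0.0163 without the libraries that stood apart). In NRF this amplitude ranked 62nd of 16097 transcripts. The amplitude call was lost without each replicate number in turn (adjusted p from 0.065 to 0.14), with a difference of -0.26 to -0.35. Peak times were ZT11.0 and ZT12.0, with an interval of the difference from -1.65 to 3.61 h. The 24-h cosine behind the DRF peak was not called (adjusted p = 0.0722 in limma).

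The DRF profile of Ciart was not flat. Its 4 mice at ZT4 had 9.36, 9.37, 12.0 and 10.7 CPM, and those at ZT8 had 13.1, 13.6, 17.0 and 15.95 CPM. The ZT4 mice thus lay below all ZT8 mice, and of the ZT0 mice only the lowest, at 11.5 CPM, lay within the ZT4 range. A 12-h term added to the 24-h cosine was called for Ciart in DRF (adjusted p = 0.00518 in limma, 0.00479 without the libraries that stood apart), with a 12-h amplitude of 0.17 beside the 24-h amplitude of 0.16. It was called for 1 of 5 members, where 22.1% of all transcripts were called with all mice and 6.11% without those libraries, and it was not called without ZT4 (adjusted p = 0.572) or without replicate 2 (0.0653). In NRF 0 of 5 members had a called 12-h term in limma, against 0.0186% of transcripts, and 2 (Nr1d1 and Ciart) had an unadjusted p-value under 0.05.

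With no shape assumed, a change over the 7 time points was called in limma for 5 of 5 members in NRF, against 29.5% of transcripts, and for 4 of 5 in DRF (all but Bhlhe40), against 32%. The same 4 were called in DRF without the libraries that stood apart, with a highest adjusted p of 0.0154 for Nr1d2. The share of all transcripts called in that fit is not given here. Of the 35 pairs of a member and a time point, 4 passed the contrast between regimens in limma, against 4.39% of such pairs over all transcripts. The calls of Nr1d2 and Bhlhe41 at ZT16 were lost without the libraries that stood apart, when 3 pairs passed (Nr1d1 and Ciart at ZT0 and Ciart at ZT12), against 2.91%. In 6 of the 35 pairs the groups did not overlap, against 9.77%. These were Nr1d1 at ZT0 and ZT8, Bhlhe41 at ZT4 and ZT12, and Ciart at ZT0 and ZT12. ZT24 and ZT0 differed for 0 of 10 pairs of a member and a regimen, also at an unadjusted p-value under 0.05, where limma called 0.391% of transcripts in DRF and 1.78% in NRF.

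Among 8 clock genes driven through E-boxes, like the members, all 8 were rhythmic in NRF and 4 in DRF by the MetaCycle-type test. In limma 2 differed in rhythm between regimens. Over all transcripts the shares were 27.8%, 0.813% and 11.1%. The 2 that differed were Dbp, an output factor, and Per1, a period gene. Dbp had amplitudes of 0.73 in NRF and 0.40 in DRF (adjusted p of the rhythm difference 6.26e-04). Per1 had 0.27 and 0.08 (adjusted p of the rhythm difference 0.0109). The amplitude difference alone passed in limma for 1 of the 8, Dbp (adjusted p = 0.0035), and not for Per1 (0.144). Per2, Per3 and Tef, like Dbp rhythmic in DRF with all mice, were not called for a rhythm difference (adjusted p = 0.604, 0.316 and 0.127 in limma). Without the libraries that stood apart the list had 2 DRF calls, Dbp and Per3. The median amplitude of the list was 0.23 in NRF and 0.09 in DRF, against 0.07 and 0.06 over all transcripts and 0.20 and 0.12 over the 5 members. The mean level differed for 3 of 8, against 7.38% of all transcripts. These were Cry2, Per3 and Tef, each higher in DRF by 0.08 to 0.12 (log2).

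Among 6 genes regulated through RREs, the elements bound by REV-ERBs, 5 were rhythmic in NRF, 1 in DRF and 3 differed in rhythm. Over all transcripts the shares were 27.8%, 0.813% and 11.1%. Without the libraries that stood apart 2 of the 6 differed, against 10.5%. Arntl, which encodes BMAL1, peaked at ZT23.6 with an amplitude of 0.23 in NRF and 0.11 in DRF (adjusted p of the difference 0.0449, and 0.066 without the libraries that stood apart). Nfil3, a repressor at D-boxes, had amplitudes of 0.26 and 0.11 (adjusted p = 0.00964). Fabp7, a brain fatty acid binding protein, was the rhythmic gene in DRF, with amplitudes of 0.91 and 0.51 (adjusted p = 0.00445), and its mean level was lower in DRF (log2 difference -0.51, adjusted p = 7.21e-07). The list had a median amplitude of 0.20 in NRF and 0.11 in DRF.

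Over the 14 group means, the log2(CPM + 1) of Arntl correlated with that of Ciart at r = -0.915, of Bhlhe41 at -0.842, of Bhlhe40 at -0.675, of Nr1d2 at -0.665 and of Nr1d1 at -0.604. Over the 7 NRF means, which hold no library that stood apart, the order changed. There r was -0.981 for Bhlhe41, -0.951 for Ciart, -0.874 for Bhlhe40, -0.734 for Nr1d2 and -0.717 for Nr1d1. Among the members the closest pair over the 14 means was Bhlhe41 and Ciart at r = 0.839, and the least alike were Nr1d1 and Nr1d2 at r = 0.243. These values describe group means that share libraries, and no test was made of them.

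The genes with which REV-ERB proteins act were counted in the same way. Over all transcripts 27.8% were rhythmic in NRF, 0.813% in DRF and 11.1% differed in rhythm. In lists this short, counts near these shares are no result about a list. Of 5 corepressor genes, 3 were rhythmic in NRF, 0 in DRF and 1 differed in rhythm, Hdac3, the deacetylase. Its amplitudes were 0.14 in NRF and 0.04 in DRF. In limma the adjusted p was 0.0224 for its rhythm difference and 0.0646 for its amplitude difference. Of 6 genes for REV-ERB protein turnover, 3 were rhythmic in NRF, 0 in DRF and 0 differed. Of 8 haem synthesis genes, 1 was rhythmic in NRF, 0 in DRF and 2 differed, Cpox and Uros. Neither had a lower amplitude in DRF, with 0.13 against 0.09 in NRF for Cpox and 0.07 in both for Uros. Among 6 activators and ROR receptors, of which 3 are also RRE targets, 3 were rhythmic in NRF, 0 in DRF and 2 differed with all mice, Arntl and Rorb, but 0 without the libraries that stood apart.

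Other signals, of neuronal activity, low oxygen and glucocorticoids, can also act on clock repressor genes. The counts below stand against the same shares of all transcripts, 27.8% in NRF, 0.813% in DRF and 11.1% for the rhythm difference. Here too, counts near these shares are no result about a list. Of 8 activity-induced genes, 1 was rhythmic in NRF, 0 in DRF and 1 differed in rhythm (Npas4, adjusted p = 0.0166 in limma). Of 8 hypoxia-induced genes, which like Bhlhe40 respond to low oxygen, 3 were rhythmic in NRF and 1 in DRF. Vegfa alone differed (adjusted p = 1.2e-04 in limma), or 2 of the 8 without the libraries that stood apart. Its amplitude was 0.14 in NRF and 0.12 in DRF, and its peak ZT22.0 and ZT14.6. Of 6 glucocorticoid targets, 6 were rhythmic in NRF, 3 in DRF (2 without the libraries that stood apart) and 3 differed. Tsc22d3 and Per1 had a lower amplitude in DRF (0.39 against 0.50, and 0.08 against 0.27). Sult1a1 had a higher one (0.49 against 0.26).

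The 3 transcripts most like each member over the 14 group means, by Pearson's r among transcripts with a mean log2(CPM + 1) of at least 2, were none of the other members. They were Dhrs11, Nrarp and Syt3 for Nr1d1 (r = 0.924 to 0.917), Gcnt4, Mtmr2 and Usp53 for Nr1d2 (0.907 to 0.889), Sox8, Tprn and Tubb4a for Bhlhe40 (0.895 to 0.883), Tinf2, Dbp and Col9a3 for Bhlhe41 (0.922 to 0.873), and Tesk2, Eva1a and Dclre1b for Ciart (0.925 to 0.917). The DRF ZT16 mean of each contains the libraries that stood apart.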

How the data were processed

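Oligo(dT)-purified RNA of each mouse was sequenced, and per the labels and the methods of the study the reads were mapped with HISAT2 and Bowtie2 to GRCm38.p6, quantified with RSEM and scaled by the authors with edgeR (TMM) before conversion to TPM. The deposited values add up to 999333 to 999720 per mouse but are a compressed score: they are proportional to log2(CPM + 1) divided by exon length. Undoing these steps with exon lengths of the gene annotation gave reads and CPM, with whole reads (within 0.05) for 14315 genes at the annotated length and fractions for Nr1d1. No deposited column was left out.

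Rhythm was tested on the deposited score in 16245 transcripts (a minimum of 1 in 80% or more of the mice, periods of 20 to 28 h). Other tests were limma 3.58.1 models of log2(CPM + 1) for 16097 transcripts, in place of the deposited scale, with Benjamini-Hochberg adjustment over all of them. Intervals are 95%. Both steps were tested on simulated data. Replicates are separate mice, numbered in the labels. Members, gene lists and tests were chosen with earlier results of these data known. Some listed genes are not reported here. Genes named from the E-box and RRE lists passed the rhythm difference or were rhythmic in DRF. Those named from other lists, and Cry2, fall outside that rule and were chosen after their values were seen. Python 3.11.15, scipy 1.17.1 and R 4.3.3 were used. Alternatives covered the scale, filter, library trends, replicate block, single replicate numbers and time points, and, chosen after seeing the data, the 2 DRF ZT16 libraries.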

Additional observations from a re-analysis of the deposited data

Results flagged for a closer look

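The 24-h rhythm differed between DRF and NRF for Nr1d1 (adjusted p = 0.00228 in limma), Nr1d2 (adjusted p = 0.0232, and 0.0895 without the DRF ZT16 libraries that stood apart), Bhlhe41 (adjusted p = 0.00323) and Ciart (adjusted p = 0.0032).

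In 70 groups of 4 mice, 4 held a mouse far from the other 3 on the log2(CPM + 1) scale, by the ratio of its gap to the range of the group, and chance flags about 1 in 20 groups. Nr1d2 was highest in replicate 2 of NRF ZT0 (125 CPM against 118 in the others, ratio 0.89) and lowest in replicate 1 of NRF ZT16 (137 CPM against 158 to 160.0, ratio 0.918). Ciart was lowest in replicate 2 of DRF ZT16 (10.6 CPM against 13.3 to 13.8, ratio 0.869) and in replicate 4 of NRF ZT12 (18.3 CPM against 22.5 to 23.2, ratio 0.873).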

How the results depend on the processing

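Counts are members of the 5 that passed, unless stated. With the Lomb-Scargle periodogram alone the rhythm count was 0 in both regimens. Rhythm in DRF was called for 2 with the limma cosine, for 0 without ZT8 and for 0 to 1 without 1 replicate number. The rhythm difference was called for 2 to 4 without 1 replicate number. In those fits limma called 410 to 1535 of 16097 transcripts, against 1779 with all mice. For most other settings the share of all transcripts called is not given here. Whether a lost call is particular to the members therefore cannot be told. The amplitude difference was called for 0 without each replicate number, and for 1 on either log scale of the deposited value, without ZT0, ZT4, ZT8, ZT12, ZT20 or ZT24 and without the 2 DRF ZT16 libraries. The peak time difference was called for 1 to 2 without 1 replicate number and for 1 without ZT0, ZT4, ZT8, ZT16 or ZT24, and that of Bhlhe41 could not be tested without replicate 3 or ZT8. Change over time was called for 3 to 4 in NRF and 2 to 4 in DRF without 1 replicate number, and for 3 in NRF without ZT12. The 12-h term in DRF was called for 0 to 2 without 1 replicate number and for 0 without ZT4. Of the 35 contrasts at single time points, 1 to 3 passed without 1 replicate number and 2 without ZT0 or ZT12. No called difference changed direction. The fitted mean difference of Nr1d2, which was not called, changed sign without the 2 DRF ZT16 libraries. The causes were not tested.

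The replicate block changed no call: the rhythm difference stayed at 4, with an adjusted p of 0.00208 for Nr1d1 and 0.0254 for Nr1d2. Deviations from the group mean in DRF and NRF mice of the same number correlated at -0.526 to 0.232 (median -0.0139). For mice of other numbers the median was 5.78e-04, and 3 of 28 correlated best with their own number. With groups of 4 mice these correlations cannot exclude a batch or cage shared by mice of 1 number.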
